A study of Mus musculus with 6 samples.

Results

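Complement components made by macrophages were followed as 7 named genes, C1qa, C1qb, C1qc, C3, C4b, Cfp and Cfb, out of 36333 genes listed per library. They were chosen by gene symbol, as complement components that macrophages are known to make, and all 7 were found; 6 passed a filter on low values. The 6 libraries hold polyadenylated RNA from C57BL/6 mouse bone marrow derived macrophages, differentiated over 7 days with 10 ng/mL of the growth factor M-CSF (macrophage colony-stimulating factor) and replated at 250000 cells per well of 24-well plates. Of these cultures 3 received 100 µM stearic acid, a saturated fatty acid, for 24 h and 3 received the vehicle alone (EtOH in the library names) for 24 h. Both groups shared the C57BL/6 genotype and the M-CSF history. The labels do not say whether the replicates, numbered 1 to 3 in each group, came from separate animals or cultures. The p-values therefore refer to differences among these particular libraries, and that spread could be purely technical.

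Complement is a cascade of plasma proteins that tags particles and dying cells for uptake. C1q, built from A, B and C chains, recognises antibody and apoptotic surfaces and starts the classical pathway; C4 and C2 then form its C3 convertase, while factor B and properdin form and stabilise the convertase of the alternative pathway. Liver makes most circulating complement, whereas C1q and properdin come largely from myeloid cells, tissue macrophages among them.

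The genes of the C1q chains lie side by side within 18719 bp of chromosome 4 (GRCm38, NCBI gene coordinates of RefSeq GRCm38.p6), in the order C1qb (136880126 to 136886200), C1qc (136889801 to 136892936) and C1qa (136895916 to 136898844). RefSeq promoter windows, 250 bases before and 50 bases after the annotated start, were matched for 4 of the 7 members, namely C1qb, C1qc, C3 and Cfp. The windows of C1qb (chr4:136886151-136886450, minus strand) and C1qc (chr4:136892865-136893164, minus strand) are shown because the C1q genes are the members that passed the test described below. They are written 5′ to 3′ in the direction of transcription, and capitals mark GAGGAA on either strand, the core of sites bound by ETS factors such as PU.1.
C1qb: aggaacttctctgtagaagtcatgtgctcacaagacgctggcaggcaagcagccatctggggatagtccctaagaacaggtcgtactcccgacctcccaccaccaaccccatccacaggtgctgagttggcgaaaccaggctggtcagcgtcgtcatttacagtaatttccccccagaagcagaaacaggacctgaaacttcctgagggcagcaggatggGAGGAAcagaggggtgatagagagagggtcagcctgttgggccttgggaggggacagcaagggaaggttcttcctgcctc
C1qc: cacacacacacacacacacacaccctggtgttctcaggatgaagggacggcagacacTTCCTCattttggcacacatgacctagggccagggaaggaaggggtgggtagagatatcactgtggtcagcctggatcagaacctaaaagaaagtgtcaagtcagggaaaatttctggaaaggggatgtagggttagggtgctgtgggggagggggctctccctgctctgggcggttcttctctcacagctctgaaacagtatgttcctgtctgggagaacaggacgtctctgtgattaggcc
GAGGAA was found once in each of these windows, beginning 30 bases before the C1qb start and, on the opposite strand, at base -193 of the C1qc window, and it was present in 28.3% of all 32851 windows of the same length. The Cfp window held 2 copies, and the C3 window held none. None of the 4 windows held the MAF part site TGCTGAC (4.7% of all windows), the interferon response part site GAAANNGAA (8.6%) or the part of an NF-kB site GGGANNTTC (3.9%), each searched on both strands. A letter match is a description of the window and not evidence of binding.

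Library depth, worked out from the size of a single read, ranged between 58.05 and 80.8 M (reads or read pairs), and 1 TPM stood for 19.1 to 27.7 of them per kilobase. TPM, transcripts per 1000000 transcripts, is a share of the library corrected for gene length, so genes can be compared with each other and every difference is one of shares. Differences were tested with limma on log2(TPM + 1) over the 11551 genes that averaged 1 TPM or more, with Benjamini-Hochberg adjustment over all of them, and a gene was called when its adjusted p was under 0.05. By this rule 11.9% of tested genes were lower and 12.8% were higher with stearic acid, 24.7% in all. Stearic acid replicate 1 lay nearest to vehicle: the median absolute log2 difference from the vehicle mean over tested genes was 0.11, 0.24 and 0.17 in stearic acid replicates 1, 2 and 3. All 7 macrophage markers on the fixed list were detected. Their summed level was 22899 to 28263 TPM with stearic acid and 31951 to 32945 TPM in vehicle. Lyz2 made up most of this sum and of its difference, with means of 19818 TPM with stearic acid and 26282 TPM in vehicle. Cd68 and Cd14 had higher means with stearic acid, and the other markers had lower means. Summed markers of other cells were low, at 6.32 to 7.22 TPM with stearic acid and 2.45 to 4.71 TPM in vehicle for 8 neutrophil and progenitor genes, 0.730 to 1.13 TPM and 1.04 to 1.26 TPM for 6 dendritic cell genes, 0.159 to 0.477 TPM and 0.225 to 0.501 TPM for 5 lymphoid genes, and 1.24 to 3.37 TPM and 2.69 to 4.41 TPM for 7 stromal and endothelial genes, in the same order of groups. Of the neutrophil genes S100a8 was the one tested; it was called higher (log2 0.81, limma adjusted p = 0.016; 0.069 without vehicle replicate 2) and made up most of the sum, while S100a9, Camp, Mpo, Elane and Ly6g had lower means with stearic acid, all below the filter. Retnlg, Cd3e and Ncr1 were listed at 0 in every library.

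With stearic acid all 3 C1q chain transcripts fell, and no other member passed the test. C1qa was at 60.2%, C1qb at 65.2% and C1qc at 72.8% of their vehicle means. C3, the properdin gene Cfp and the factor B gene Cfb had lower means with stearic acid, at 83.0%, 89.8% and 84.7% of vehicle, without passing. C4b lay below the filter. Of the 6 tested members 3 were thus called lower, beside 11.9% of all tested genes, and 0 were called higher (limma; also 0 at an unadjusted p under 0.05), beside 12.8%. The median log2 fold change of the 6 was -0.38, against -0.03 over all tested genes. Over the 7 macrophage markers it was also -0.38, with 3 called lower and 1 called higher, so a shift of this size was not particular to the members.

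**Figure D1:**
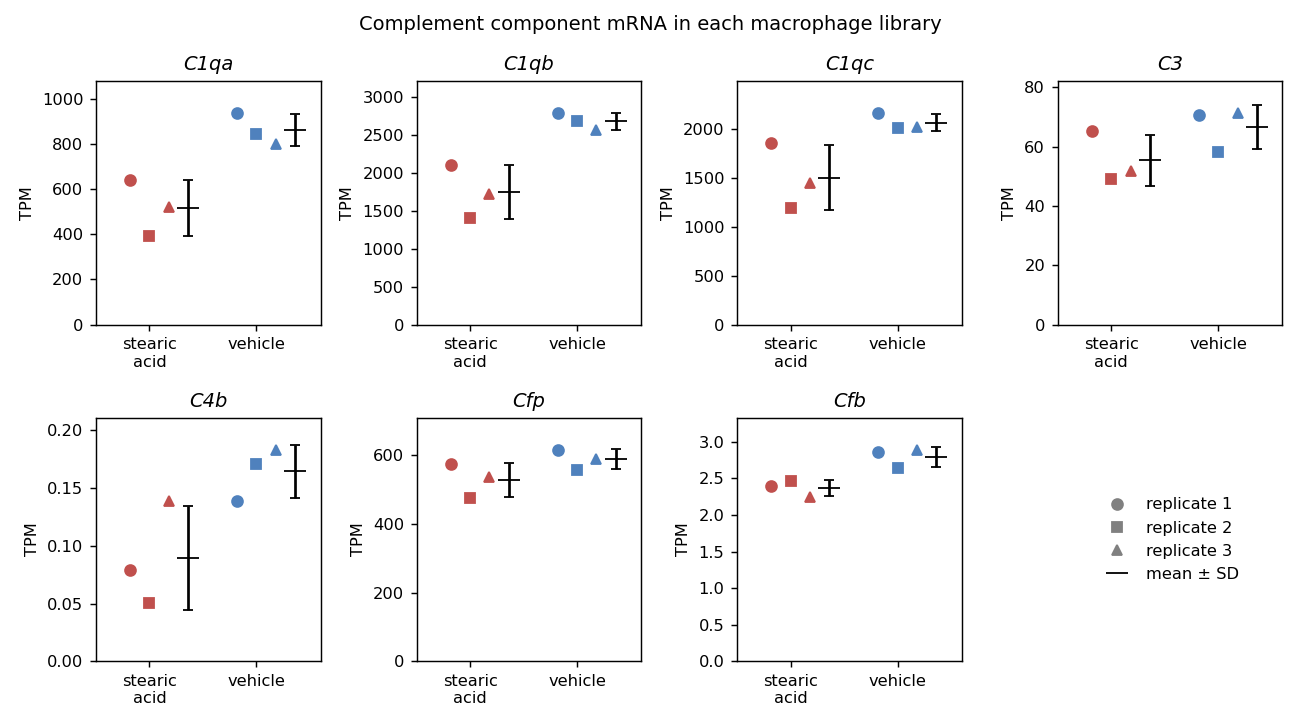
TPM of each complement gene in each library, stearic acid left and vehicle right, with a marker shape per replicate number and the mean ± SD beside the points; each panel has its own linear axis from 0. The C1qa, C1qb and C1qc points of the 3 stearic acid libraries all lie below those of the 3 vehicle libraries, while the groups overlap in C3 and Cfp.

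C1qa, which encodes the A chain of C1q (NCBI gene 12259), had 641, 393 and 519 TPM in stearic acid replicates 1 to 3, against 937, 845 and 797 TPM in vehicle replicates 1 to 3. Every stearic acid library was below every vehicle library. The means were 518 ± 124 TPM and 860 ± 71.2 TPM (SD, n = 3 each), a log2 fold change of -0.76 (SE 0.15, limma adjusted p = 0.013).

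C1qb, which encodes the B chain (gene 12260), was the most abundant member, with 2109, 1404 and 1724 TPM in stearic acid replicates 1 to 3, against 2793, 2682 and 2563 TPM in vehicle replicates 1 to 3. The groups did not overlap. Its means were 1746 ± 353 TPM and 2679 ± 115 TPM (SD, n = 3 each), a log2 fold change of -0.64 (SE 0.13, limma adjusted p = 0.012). By mean level C1qb was the 57th gene of the stearic acid libraries and the 31st of the vehicle libraries.

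C1qc, which encodes the C chain (gene 12262), had 1856, 1195 and 1450 TPM in stearic acid replicates 1 to 3, against 2163, 2009 and 2015 TPM in vehicle replicates 1 to 3. The groups did not overlap, although stearic acid replicate 1 came close to the lowest vehicle library. The means were 1500 ± 333 TPM and 2062 ± 87.5 TPM (SD, n = 3 each), a log2 fold change of -0.48 (SE 0.14, limma adjusted p = 0.034).

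The C1q calls depend on the libraries included. Without vehicle replicate 2 or vehicle replicate 3 none of the chains passed (limma adjusted p of 0.065 and 0.053 for C1qa, 0.065 and 0.055 for C1qb, 0.094 and 0.11 for C1qc), and C1qc also did not pass without vehicle replicate 1 (0.10) or stearic acid replicate 3 (0.096). Without stearic acid replicate 1 the adjusted p was 9.2e-06 for C1qa, 9.5e-06 for C1qb and 4.2e-05 for C1qc. In bulk RNA, fewer cells of a type and less RNA per cell cannot be told apart. The macrophage markers moved in both directions: Adgre1, Fcgr1 and Lyz2 fell and Cd68 rose among 7 tested, beside 11.9% and 12.8% of all tested genes. Each of these calls was also lost without vehicle replicate 2 or 3; that of Fcgr1 was lost without vehicle replicate 1 too, and those of Lyz2 and Cd68 without vehicle replicate 1 or stearic acid replicate 3. The part of these markers in the C1q result was not tested.

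Summed over the chains, C1q mRNA was 4606, 2993 and 3692 TPM in stearic acid replicates 1 to 3, against 5893, 5535 and 5375 TPM in vehicle replicates 1 to 3. This was 0.376% ± 0.0809 of all transcripts with stearic acid and 0.560% ± 0.0265 in vehicle (SD, n = 3 each). The groups did not overlap, and the exact permutation p (two-sided) was 0.1, which is the minimum for 3 libraries against 3.

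In these libraries the proportions of the chains differed between the groups. The shares within a library add up to the whole, so they are not separate results. C1qc made up 40.3%, 39.9% and 39.3% of the C1q sum in stearic acid replicates 1 to 3, against 36.7%, 36.3% and 37.5% in vehicle replicates 1 to 3. C1qa made up 13.9%, 13.1% and 14.0% with stearic acid, against 15.9%, 15.3% and 14.8% in vehicle, and C1qb made up 45.8%, 46.9% and 46.7%, against 47.4%, 48.4% and 47.7%. The groups did not overlap in any of the 3 shares, with the C1qc share higher and the C1qa and C1qb shares lower with stearic acid (exact permutation p = 0.1 for each, the smallest possible; 0.1 also after Benjamini-Hochberg adjustment over the 3 shares). The ratio of C1qb to C1qc was 1.17 ± 0.0273 with stearic acid and 1.30 ± 0.0324 in vehicle (SD, n = 3 each). These are ratios of mRNA, and protein assembly was not measured.

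**Figure D2:**
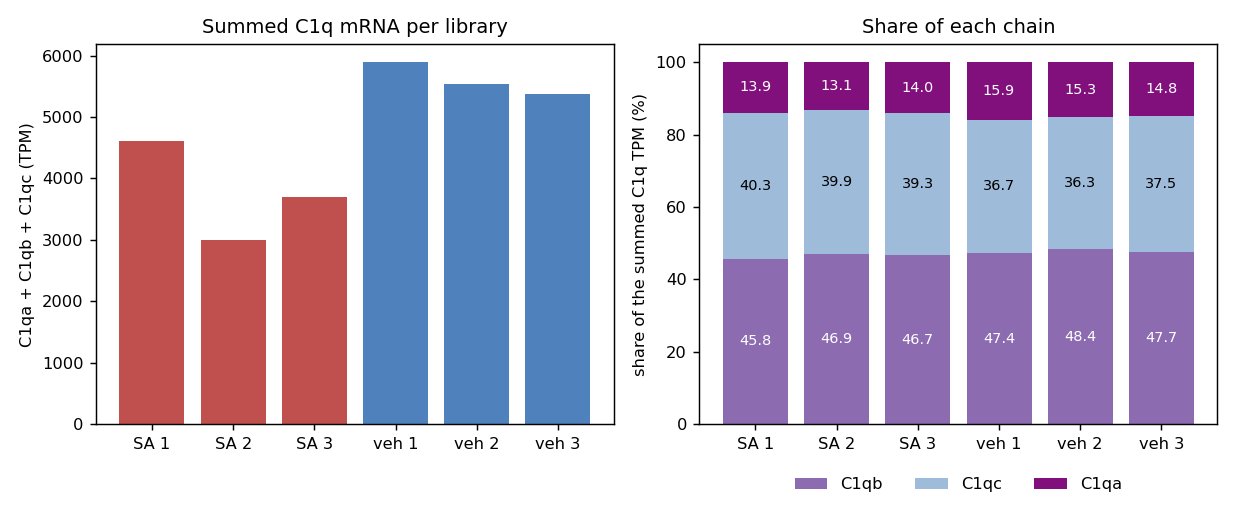
Left, the sum of C1qa, C1qb and C1qc in TPM for stearic acid (SA) and vehicle (veh) replicates 1 to 3; right, the percentage of that sum held by each chain. The sum is 2993 to 4606 TPM with stearic acid and 5375 to 5893 TPM in vehicle, and the C1qc share is 39.3% to 40.3% and 36.3% to 37.5%.

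C4b, the classical pathway component that is cleaved by C1s (gene 12268, chromosome 17, 34728139 to 34743902), was near the limit of detection. It had 0.0792, 0.0508 and 0.138 TPM in stearic acid replicates 1 to 3, about 9.4, 7.5 and 18.8 reads, against 0.139, 0.170 and 0.183 TPM in vehicle replicates 1 to 3, about 20.7, 24.5 and 18.8 reads. These read numbers assume the length of the longest C4b transcript, 5379 bases. They were mostly not near whole numbers but ran in steps of a common size above a single read, so the true numbers are probably lower. By this reckoning stearic acid replicate 3 and vehicle replicate 3 had the same number of reads. In TPM the highest stearic acid library fell just short of the lowest vehicle library. The C4b mean with stearic acid was 54.5% of the vehicle mean. The log2(TPM + 1) difference was -0.10 (two-sided exact permutation p = 0.1, the smallest possible); with a pseudocount of 0.1 it was -0.50, with the same p, and in RPKM the groups overlapped (exact p = 0.2). C4a, listed by RefSeq as a transcribed pseudogene in the same region of chromosome 17 (34809092 to 34823460), is a close copy: 16.5% of all 100-base stretches of the longest C4b transcript were also present in C4a, so reads may have been shared between them. C4a had 0.289 ± 0.00775 TPM with stearic acid and 0.349 ± 0.0539 TPM in vehicle (SD, n = 3 each), and the sum of C4b and C4a was 0.379 ± 0.0387 TPM and 0.513 ± 0.0694 TPM.

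C3, the central component on which all routes of activation converge (gene 12266, chromosome 17, 57203967 to 57228136), had 65.2, 49.0 and 51.6 TPM in stearic acid replicates 1 to 3, against 70.5, 58.0 and 71.3 TPM in vehicle replicates 1 to 3. The groups overlapped, since stearic acid replicate 1 was above vehicle replicate 2. The log2 fold change was -0.27 (SE 0.12, 95% interval -0.54 to 0.0042, limma adjusted p = 0.13). Without stearic acid replicate 1 it was -0.39 and passed (limma adjusted p = 0.0039).

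Cfb, which encodes factor B, the protease of the alternative C3 convertase (gene 14962, chromosome 17, 34856374 to 34862514), was low, with 2.39, 2.47 and 2.25 TPM in stearic acid replicates 1 to 3, against 2.85, 2.64 and 2.89 TPM in vehicle replicates 1 to 3. Every stearic acid library was below every vehicle library, yet the change did not pass (log2 -0.17, SE 0.09, 95% interval -0.37 to 0.02, limma adjusted p = 0.17). The difference was smaller in RPKM (log2 -0.092) and after quantile normalization (log2 -0.11), and larger with a pseudocount of 0.1 (log2 -0.23). It did not pass in any of these. Among the 6 tested members the groups were apart in this way for the C1q chains and Cfb, and the same held for 21.7% of all tested genes.

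Cfp, which encodes properdin, the stabiliser of the alternative convertase (gene 18636, chromosome X, 20925454 to 20931555), had 574, 476 and 536 TPM in stearic acid replicates 1 to 3, against 617, 558 and 591 TPM in vehicle replicates 1 to 3. The groups overlapped. The log2 fold change was -0.16 (SE 0.08, 95% interval -0.34 to 0.03, limma adjusted p = 0.18); without stearic acid replicate 1 it was -0.22 and passed (limma adjusted p = 0.036).

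The order of levels differed between the groups at a single place. With stearic acid the members ranked C1qb, C1qc, Cfp, C1qa, C3, Cfb and C4b by mean. There C1qb and C1qc overlapped across libraries, although C1qb was the higher in each library, and Cfp (529 ± 49.3 TPM) and C1qa (518 ± 124 TPM) did not differ beyond their spread. In vehicle C1qa stood above Cfp, the others kept these places, and no neighbours in the order overlapped. The ratio of C1qa to Cfp within a library was 1.12, 0.826 and 0.967 in stearic acid replicates 1 to 3, against 1.52, 1.51 and 1.35 in vehicle replicates 1 to 3 (exact permutation p = 0.1, the smallest possible). All stearic acid ratios were below all vehicle ratios. Ratios between members were not among the comparisons fixed beforehand. The C1qa to Cfp ratio restates the change of order, so its p adds no support to it. The ratio of Cfp to C3 was 9.63 ± 0.800 with stearic acid and 8.89 ± 0.681 in vehicle, and its groups overlapped.

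Across the stearic acid libraries the C1q chains, C3 and Cfp shared one order. Replicate 1 lay nearest to the vehicle mean and replicate 2 farthest, as over all tested genes. For C1qa the log2(TPM + 1) differences from the vehicle mean were -0.42, -1.12 and -0.72 in replicates 1, 2 and 3, and for C1qc they were -0.15, -0.79 and -0.51. For C3 they were -0.02, -0.43 and -0.36. Cfb did not follow this order, with -0.16, -0.13 and -0.23, and neither did C4b, with -0.11, -0.15 and -0.03.

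**Figure D3:**
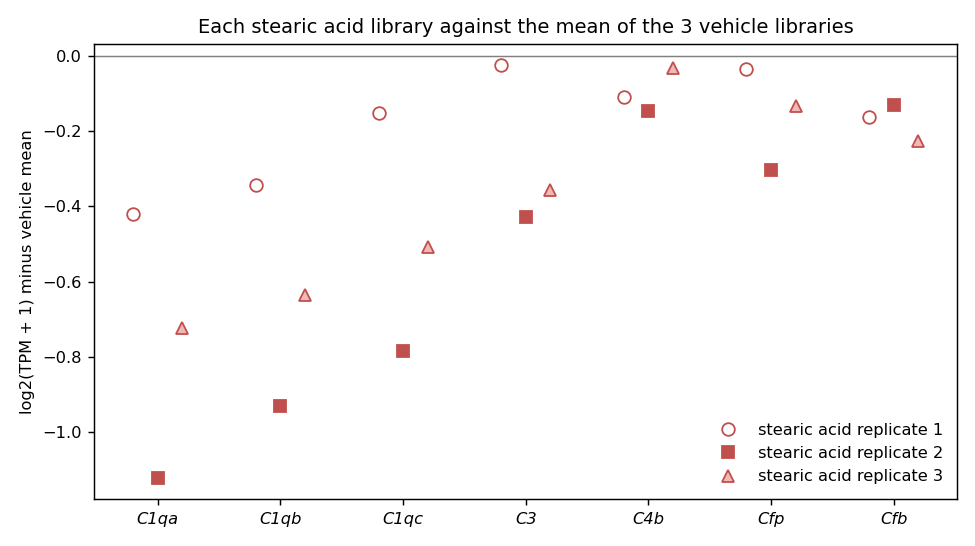
Difference of each stearic acid library from the mean of the 3 vehicle libraries in log2(TPM + 1), one symbol per replicate; the line at 0 is the vehicle mean. All symbols lie below 0, and in C1qa the differences run from -0.42 in replicate 1 to -1.12 in replicate 2.

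The protein-coding neighbours of the C1q genes were also read, 4 on each side. Those that were tested, the demethylase gene Kdm1a, the zinc finger gene Zbtb40 and the GTPase gene Cdc42, had log2 fold changes of 0.05, 0.11 and -0.06 (limma adjusted p = 0.61, 0.34 and 0.50). Ephb2 and Epha8, the ephrin receptor genes flanking the cluster, reached at most 0.0760 and 0.0159 TPM. Around Cfb, Nelfe, a subunit gene of a transcription elongation factor that ends at 34856372 directly beside it, had a log2 fold change of 0.02 (limma adjusted p = 0.84), and C2, which encodes the partner of C4 in the classical convertase, was at 0.0848 ± 0.0144 TPM with stearic acid and 0.123 ± 0.00443 TPM in vehicle (SD, n = 3 each).

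In the rest of the complement pathway few genes passed the filter on low values outside the receptors and binding proteins. Of 48 further genes in 4 fixed lists 18 were tested, beside 11551 of all 36333 genes. Of the 18, 5 were called higher, beside 12.8% of all tested genes, and 3 were called lower, beside 11.9%. The other 10 did not pass, and the median log2 fold change was -0.04. Among 16 genes of initiation and the convertases 3 were tested. Fcna, which encodes ficolin A, a lectin pathway recognition protein, had 11.4, 9.97 and 9.80 TPM in stearic acid replicates 1 to 3, against 14.8, 14.0 and 15.2 TPM in vehicle replicates 1 to 3. The groups were well apart, and it fell by 0.46 on the log2 scale (SE 0.08, limma adjusted p = 0.0085), also in each fit that left out 1 library (adjusted p up to 0.047). C1ra, the C1r protease gene (log2 -0.19), and the collectin gene Colec12 (log2 0.14) did not pass. The others, C1s1, C2 and Masp1 among them, were below the filter, and Mbl1, Mbl2, Fcnb, Colec10 and Cfd were listed at 0 in every library.

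Terminal pathway genes, which encode the membrane attack complex, were low: 1 of 7 was tested, and C6, C7, C8a and C8b were listed at 0 in every library. C8g, a subunit gene of C8, had 1.12 ± 0.145 TPM with stearic acid and 1.81 ± 0.197 TPM in vehicle and fell by 0.40 on the log2 scale (limma adjusted p = 0.025); leaving out stearic acid replicate 3 or any vehicle library ended the call (adjusted p up to 0.098). Of 11 regulators that restrain complement, 2 were tested and 0 passed (limma; also 0 at an unadjusted p under 0.05). Cr1l, which encodes the mouse membrane regulator Crry, had 97.7 ± 2.24 TPM with stearic acid and 99.8 ± 2.80 TPM in vehicle (log2 -0.03, SE 0.06). Cd55, which speeds the decay of the C3 convertases, was below the filter, at 0.437 ± 0.0954 TPM with stearic acid and 0.797 ± 0.0857 TPM in vehicle (SD, n = 3 each), and was called lower when no filter was used. Cd59a, an inhibitor of the membrane attack complex, overlapped between the groups (log2 0.02, SE 0.11).

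Receptors and binding proteins were mostly well expressed, with 12 of 14 tested. Of these 5 were higher and 1 was lower, beside 12.8% and 11.9% of all tested genes, and 6 did not pass (median log2 0.05). Itgam, the CD11b chain of complement receptor CR3, had 565, 397 and 499 TPM in stearic acid replicates 1 to 3, against 700, 620 and 747 TPM in vehicle replicates 1 to 3, and fell by 0.51 on the log2 scale (SE 0.13, limma adjusted p = 0.023). Itgax, the CD11c chain of CR4, rose, with 30.1 ± 1.30 TPM against 23.6 ± 2.64 TPM in vehicle (log2 0.34). Their groups did not overlap. Megf10, a phagocytic receptor that binds C1q, had 2.38, 3.98 and 3.28 TPM with stearic acid, against 1.61, 1.64 and 1.70 TPM in vehicle (log2 0.65, SE 0.14, limma adjusted p = 0.014). The other rises were C1qbp, a mitochondrial protein first isolated as a binder of C1q heads (log2 0.52), Calr, the chaperone calreticulin, which binds C1q at the surface (log2 0.24), and C5ar1, the C5a receptor (log2 0.31). C3ar1, the C3a receptor, did not pass (log2 -0.18, limma adjusted p = 0.065). When stearic acid replicate 3, vehicle replicate 2 or vehicle replicate 3 was left out, 0 of the 14 were called higher. Without vehicle replicate 1 there were 2. Over all tested genes the same fits called 585, 384, 486 and 684 higher, in this order. With every library 1482 were called higher. Scaling by median-of-ratios factors gave 2 receptors and binding proteins called higher, and RPKM gave 3, beside 1728 and 1981 of all tested genes. The fall of Itgam did not pass when stearic acid replicate 3 or any of the vehicle libraries was left out. Without stearic acid replicate 1, 5 receptors and binding proteins were called lower, beside 2787 of all tested genes.

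Of 12 transcription factors known to act on complement genes in macrophages or other cells, all were tested. In this list 1 was higher and 3 were lower, beside 12.8% and 11.9% of all tested genes, and 8 did not pass (median log2 -0.04). Maf, which encodes the basic leucine zipper factor c-Maf, had 132, 85.4 and 115 TPM in stearic acid replicates 1 to 3, against 180, 163 and 198 TPM in vehicle replicates 1 to 3. It fell by 0.71 on the log2 scale (SE 0.15, limma adjusted p = 0.013), with no overlap. The interferon regulatory factor gene Irf1 (log2 -0.43) and the NF-kB subunit gene Nfkb1 (log2 -0.28) also fell. Cebpb, an acute phase regulator, rose to 50.5 ± 4.35 TPM, against 28.7 ± 3.03 TPM in vehicle (log2 0.79, SE 0.10, limma adjusted p = 0.0019), also in each fit that left out 1 library. Leaving out vehicle replicate 2 or 3 gave 0 falls, and leaving out vehicle replicate 1 or stearic acid replicate 3 gave 1, against 5 without stearic acid replicate 1; median-of-ratios scaling and RPKM each called 3 factors higher in place of 1. Whether any of these factors acted on the members was not tested.

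**Figure D4:**
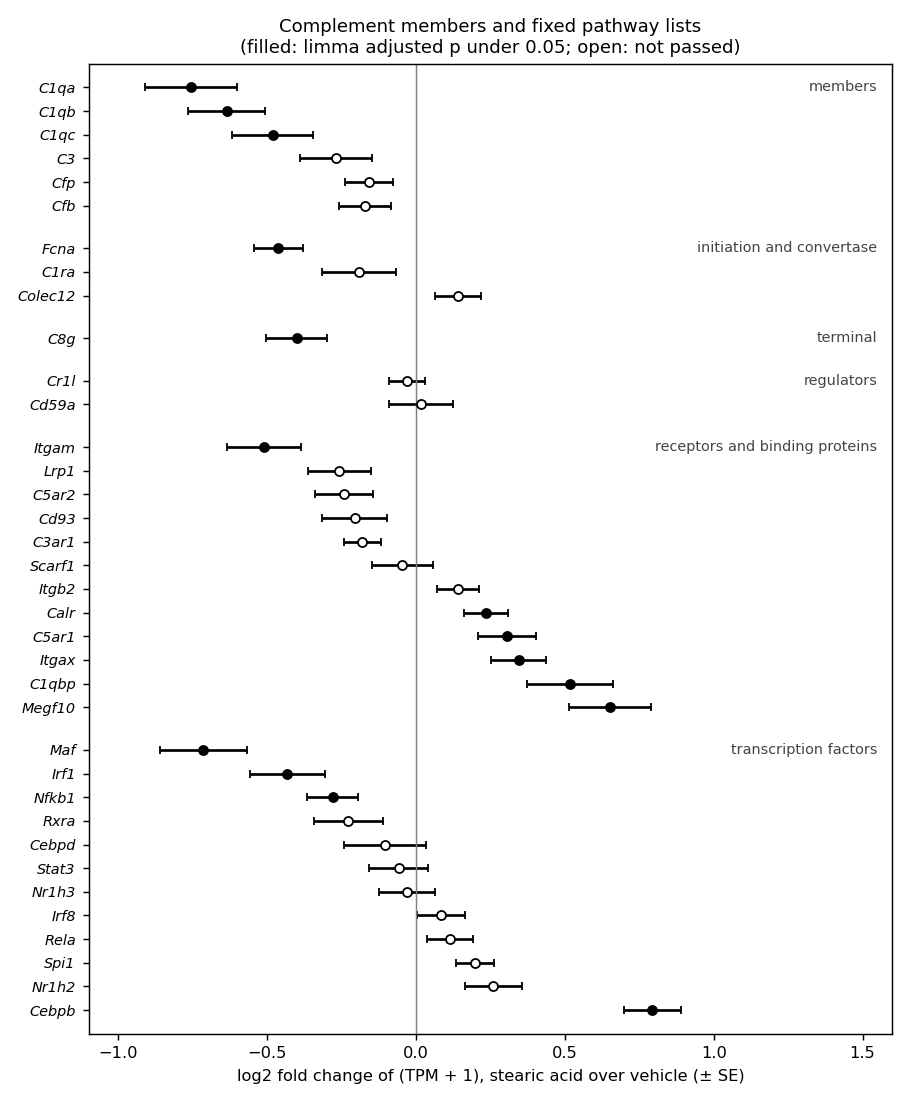
Log2 fold change of (TPM + 1), stearic acid over vehicle, with its standard error, for the 6 tested complement members and the tested genes of the fixed lists; filled points had a limma adjusted p under 0.05. C1qa, C1qb and C1qc lie at -0.76, -0.64 and -0.48, and the receptors spread from -0.51 for Itgam to 0.65 for Megf10.

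Many genes varied over the libraries as C1q did. Likeness was measured as Pearson's r of log2(TPM + 1) over the 6 libraries, among 9558 genes averaging 5 TPM or more, and is a description because all points share their groups. For the summed C1q level the 5 most similar genes were Tmem50a, the interferon regulatory factor gene Irf7, the caspase gene Casp6, the MHC class II gene H2-Aa and Rhod, with r between 0.995 and 0.998, and 637 genes exceeded 0.95. Irf7 had 153 TPM with stearic acid and 219 TPM in vehicle, and H2-Aa had 32.7 TPM and 46.8 TPM. The gene most like C3 was Sidt2, with 573 genes over 0.95, and the one most like Cfp was Ubald2, with 311. The lower members had fewer such genes: C4b had 36, led by the cohesion factor gene Dscc1 (r = 0.987), and Cfb had 6, led by Isoc2a (r = 0.975).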

How the data were processed

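RNA sequencing of 3 stearic acid and 3 vehicle libraries was read from a deposited table per library. Per the file headers, the authors give TPM (transcripts per 1000000 transcripts) and RPKM (reads per kilobase per 1000000 reads) for each gene. The submitters' processing notes name DRAGEN and the builds GRCm38 and mm10; the sources used here state neither annotation nor counting rule nor use of strand. Count tables were not used here. Depth was recovered from the RPKM steps of single-exon genes, where 72.3% to 77.9% of low values were whole reads within 0.02.

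limma 3.58.1 (R 4.3.3) with an intensity trend was fitted to log2(TPM + 1) with treatment as the only term, over genes averaging 1 TPM or more; the pseudocount understates changes of low genes. The threshold was a Benjamini-Hochberg adjusted p of 0.05, with values as mean ± SD. Single values were compared by exact permutation, two-sided, over 20 assignments. Alternatives changed the scaling, unit, pseudocount, filter, trend, block and libraries.

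The members and lists were chosen with earlier results of these data known. From each list all called genes were named where 5 or fewer were called, otherwise the 4 with the smallest p and the leading one of the other direction; C5ar1, Calr and the uncalled genes named were picked after their values were seen. For likeness the 5 most similar genes per member were kept. Some genes of the fixed lists are not reported here, and no protein sequences were compared.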

Additional observations from a re-analysis of the deposited data

How the results depend on the processing

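No member changed direction under any alternative run. With no filter on low values 0 of the members were called lower (C1qa -0.76, C1qb -0.64, C1qc -0.48 on the log2 scale, limma adjusted p of 0.064, 0.068 and 0.13), and all called genes numbered 672 higher and 355 lower. That fit adjusts over more genes and also gave larger standard errors for the C1q chains (0.18, 0.16 and 0.16); which of these ended the calls was not tested. It called 0 receptors higher or lower, 0 transcription factors and 0 terminal genes lower, and 1 regulator, Cd55, lower. Quantile normalization gave C1qc -0.42 (limma adjusted p = 0.081), and leaving out both libraries numbered 2 gave -0.35 (0.064) and 769 higher genes. In the 6 fits that each left out 1 library the members called lower numbered 0 to 5, all genes called higher 384 to 2223 and all genes called lower 142 to 2787. In those fits the log2 fold change was -0.92 to -0.57 for C1qa, -0.78 to -0.49 for C1qb, -0.65 to -0.33 for C1qc, -0.39 to -0.19 for C3 and -0.22 to -0.084 for Cfp. Why these calls depend on single libraries was not tested. The calls of all C1q chains held with median-of-ratios scaling, RPKM, a pseudocount of 0.1, no intensity trend and a filter at 5 TPM. That of C1qc was close to the threshold with median-of-ratios scaling, RPKM and no intensity trend (limma adjusted p = 0.046, 0.0496 and 0.043).

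With the replicate number as a block the C3 change of -0.27 passed (limma adjusted p = 0.035), so that 4 members were called lower. The C1q chains had smaller limma adjusted p in that fit (0.0016 for C1qa, 0.0028 for C1qb and 0.0076 for C1qc). No call of a member other than C3 changed, and all called genes numbered 1641 higher and 1997 lower. Same-numbered libraries correlated at 0.070, 0.29 and 0.039 in their deviations from the group means. The other pairs ran from -0.32 to 0.27, and stearic acid replicate 1 correlated better with vehicle replicate 3 (0.27). These values leave a pairing undecided. Depth limits C4b, which rested on about 7.5 to 24.5 reads per library by the length of its longest transcript, and probably on fewer. The sum with C4a and the adjusted p under 0.10 were chosen after seeing the data, and neither changed a call.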
